A study of Mus musculus with 3 samples.

Results

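Open chromatin was examined at 10 genes that mature beta cells keep low or silent, out of 22359 protein-coding genes in the annotation. The rule names the genes and uses no measured value, although it was set with earlier results of these data known. They are the endocrine progenitor factor Neurog3, the dedifferentiation marker Aldh1a3, the gastrin gene Gast, the disallowed metabolic genes Hk1, Hk2, Ldha and Slc16a1, and the Myc family (Myc, Mycn and Mycl1). Every deposited ATAC-seq peak that overlapped the gene body or the 20 kb on either side of it was taken. This gave 35 peaks in the wild type (WT) list, 32 in the 1-week KO list and 51 in the 5-week KO list, which merged into 66 separate regions.

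ATAC-seq marks accessible chromatin by the places where a transposase inserts sequencing adapters, and was performed here on islet cells of mice of the strain labelled C5LBl6, dissociated with Accutase. The 3 libraries came from WT mice and from mice in which Taf4, part of TFIID, a complex that helps RNA polymerase start at promoters, had been inactivated for 1 week or for 5 weeks (1-week KO and 5-week KO, together Taf4 KO). According to the study's methods, the Taf4 KO mice carried floxed Taf4 alleles and a Cre-ERT2 recombinase driven by the insulin promoter and were given tamoxifen as adults. Controls of the study were wild type at Taf4 but carried the same Cre and received tamoxifen too, although the label of this library says wild type alone, and no age is given in the labels. The driver limits deletion to beta cells, so the other islet cells kept Taf4. In such bulk islet samples a smaller share of cells with an open site and less accessibility per cell cannot be told apart. With 1 library per group no test was possible, and each difference is a difference between 3 libraries that cannot be set against the spread between animals.

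A mature beta cell senses glucose by burning it, and passes the pyruvate to the mitochondria. The low-Km hexokinases, lactate dehydrogenase and the plasma membrane carrier of lactate and pyruvate are therefore kept low, since with them insulin could be released at low glucose or during exercise. Such genes are called disallowed. Neurog3 starts the endocrine programme in the embryonic pancreas and is nearly silent afterwards. Aldh1a3, which makes retinoic acid, is a marker of beta cells that lose their identity. Gast is expressed in the fetal pancreas and in the adult stomach. The Myc proteins pair with Max, bind E-boxes and drive growth.

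The lowest local background, which stands in for depth, was 1.77-fold (1-week KO) and 2.57-fold (5-week KO) that of WT, and the lists held 60898, 150354 and 151725 peaks. Peaks were ranked within their own list by the -log10 q that the authors' peak caller gave, called confidence here, and a percentile of 100 is the strongest peak of the list. Such a percentile places a peak in its list and is no measure of change, because each further weak peak of a longer list raises the percentile of the stronger ones. The percentile among promoter peaks is less exposed to this, since the lists held 12911, 12364 and 14770 of them. A promoter is the stretch between 1000 bp before and 100 bp past any start annotated for the gene. The promoter of Taf4 itself (Taf4a), which says nothing of the deleted exons and so does not check the labels, held a peak at the 76.2 percentile in WT, the 9.15 percentile in the 1-week KO and the 81.1 percentile in the 5-week KO. Of 10 beta cell marker genes, 10 had a promoter peak in WT, 9 in the 1-week KO and 9 in the 5-week KO. Of 8 acinar markers none did in any list. In the same order, endothelial markers had 2, 4 and 6 of 8, those of stellate cells and fibroblasts 0, 3 and 5 of 8, those of duct cells 3, 4 and 4 of 6, and those of immune cells 0, 1 and 1 of 7. Calls at endothelial and stellate markers were thus more numerous in the Taf4 KO lists, as were peaks over the whole of these lists. Of all protein-coding genes, 59.0%, 55.9% and 65.6% had a promoter peak. Of those uncalled in WT, 13.3% had one in the 1-week KO and 18.9% in the 5-week KO. The calls gained at endothelial and stellate markers lay between the 17.3 (Lum) and 62.6 (Dcn) percentiles in the 1-week KO. In the 5-week KO they lay between 12.4 (Emcn) and 67.2 (Des), and Col3a1 and Lum had no call there. Neither a change in cell content nor the part of these calls in the results was tested.

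Promoter peaks were found at most of the 10 genes in every list. Of the 10, 8 had one in WT, where 59.0% of all protein-coding genes did. The 1-week KO also had 8, against 55.9% of all genes, and the 5-week KO had 9, against 65.6%. Neurog3, Hk1, Hk2, Slc16a1, Myc, Mycn and Mycl1 had a promoter peak in all 3 lists. Aldh1a3 had one in WT and in the 5-week KO, Ldha in the 1-week and 5-week KO, and Gast in no list. So 1 of the 8 genes called in WT was without a call in the 1-week KO, while 14.5% of all genes called in WT were, and 1 of the 2 uncalled genes had a call in the 1-week KO, where 13.3% of all uncalled genes did. By the 5-week KO 0 of 8 were without a call, against 1.89% of all genes, and 1 of 2 had gained one, against 18.9%.

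By median, the promoter peaks of these genes ranked lower than those of all genes in every list. Among all peaks of the list, their median percentile was 58.2 in WT, 80.8 in the 1-week KO and 76.7 in the 5-week KO. Over all genes with a promoter peak the median was 85.1, 87.7 and 89.7. Set only among promoter peaks, no gene of the 10 stood above the 32.0 percentile in WT. In the 1-week KO Hk2 stood at 58.0, Mycl1 at 56.4 and Mycn at 54.0, and in the 5-week KO none stood above 36.9. Of the 7 genes with a peak in WT and in the 1-week KO, 1 (Neurog3) ranked lower among promoter peaks in the 1-week KO, where 49.6% of all such genes did. Of the 8 with a peak in WT and in the 5-week KO, 2 (Neurog3 and Myc) ranked lower in the 5-week KO, against 38.7% of all genes. Both shares are over genes of every WT rank, whereas these genes stood low in WT, so the comparison is not like with like. Of 12 other genes of glycolysis, 12 had a promoter peak in each list, against the shares of all genes given above.

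**Figure D1:**
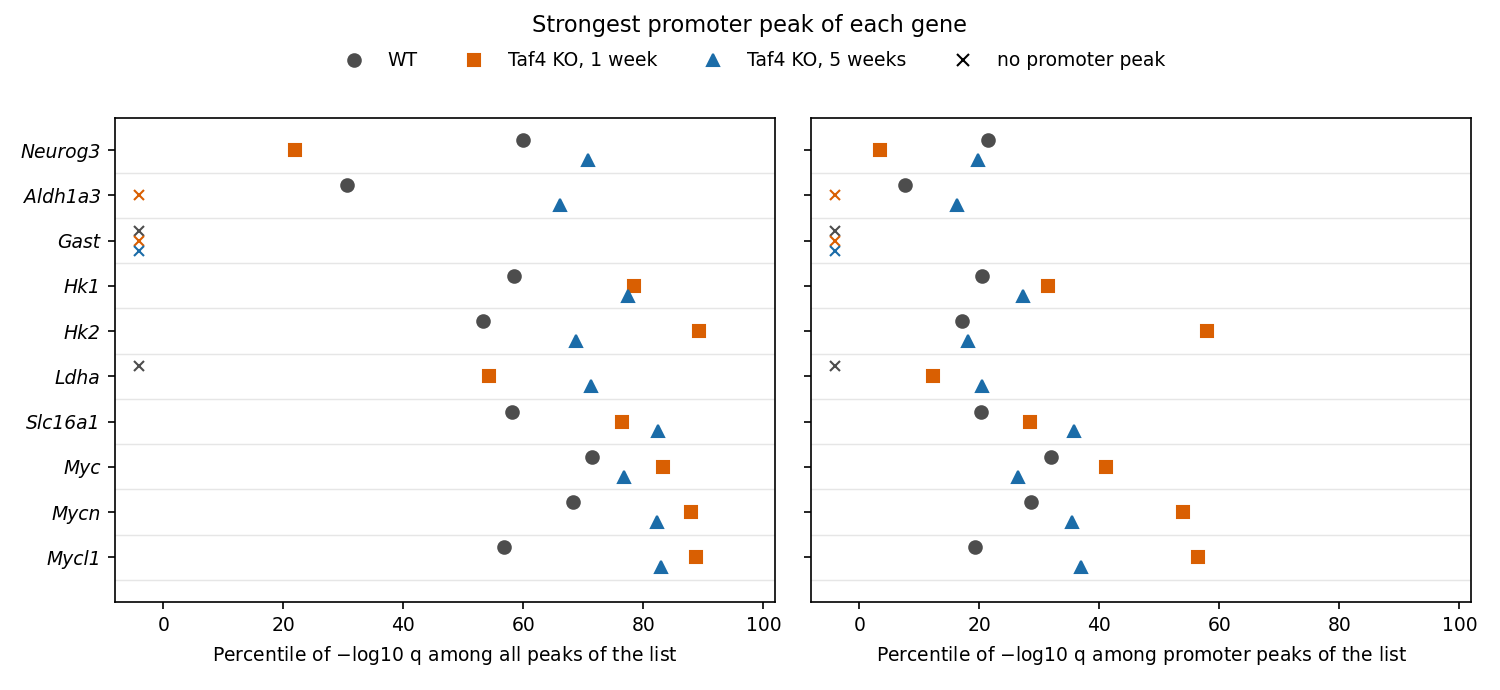
Rank of the strongest promoter peak of each gene in the WT, 1-week KO and 5-week KO lists, as the percentile of -log10 q among all peaks of the list on the left axis and among its promoter peaks on the right. Crosses mark lists without a promoter peak. WT points lie at or under the 32.0 percentile among promoter peaks, and in the 1-week KO Hk2, Mycn and Mycl1 stand furthest to the right while Neurog3 stands furthest to the left.

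Of 55 merged regions outside the promoters of the 10 genes, 13 were in all 3 lists, a count with no share over all regions of the genome beside it. In the loci, 25 WT peaks, 24 peaks in the 1-week KO and 42 in the 5-week KO lay outside these promoters. Over all genes the median locus held 3, 3 and 4 peaks, and over these genes 2.5, 3 and 3.5. The 1-week KO list had fewer peaks than WT at 5 loci (Neurog3, Aldh1a3, Gast, Hk1 and Mycl1), where 43.0% of all loci did, and more at 4 (Hk2, Ldha, Slc16a1 and Mycn), against 33.5%. The 5-week KO list had fewer at 3 (Neurog3, Hk1 and Mycl1), against 15.1% of all loci, and more at 5 (Aldh1a3, Hk2, Ldha, Slc16a1 and Mycn), against 54.0%. Without Hk2, which held 1, 9 and 14 of these peaks, the sums were 34, 23 and 37. With lists cut to equal length the sums over all 10 loci were 35, 20 and 29, and with lists scaled to the WT background 35, 20 and 25. The excess of the 5-week KO thus turned into a deficit. The cut lists held 60898 peaks each, and the scaled lists 60898, 63023 and 51943. No sums over all loci of the genome are set beside these, so they describe the 10 loci only.

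Of the WT peaks in the loci, 20 of 35 were overlapped by a peak in the 1-week KO, or 57.1% (Wilson 95% interval 40.9% to 72.0%), and 26 of 35 in the 5-week KO, or 74.3% (57.9% to 85.8%). These intervals cover the counting of peaks only. In the 1-week KO 7 of the 10 WT promoter peaks were overlapped, against 85.5% of all WT promoter peaks, and 9 of 21 WT peaks outside any promoter, against 55.5%. In the 5-week KO the same counts were 9 of 10, against 97.5%, and 13 of 21, against 74.6%. Of the 66 merged regions, 21 were in all 3 lists, 5 in WT and in the 5-week KO, 5 in both Taf4 KO lists, 9 in WT alone, 6 in the 1-week KO alone and 20 in the 5-week KO alone. None was shared by WT and the 1-week KO list without the 5-week KO list. All 9 WT-only regions were weak, at the 32.6 percentile of the WT list or below. Without Hk2, 10 regions were in the 5-week KO alone. At Mycn a region counted in all 3 lists joined a WT and a 1-week KO peak that did not overlap. No counts over all regions of the genome are set beside these, so they describe the 10 loci only.

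**Figure D2:**
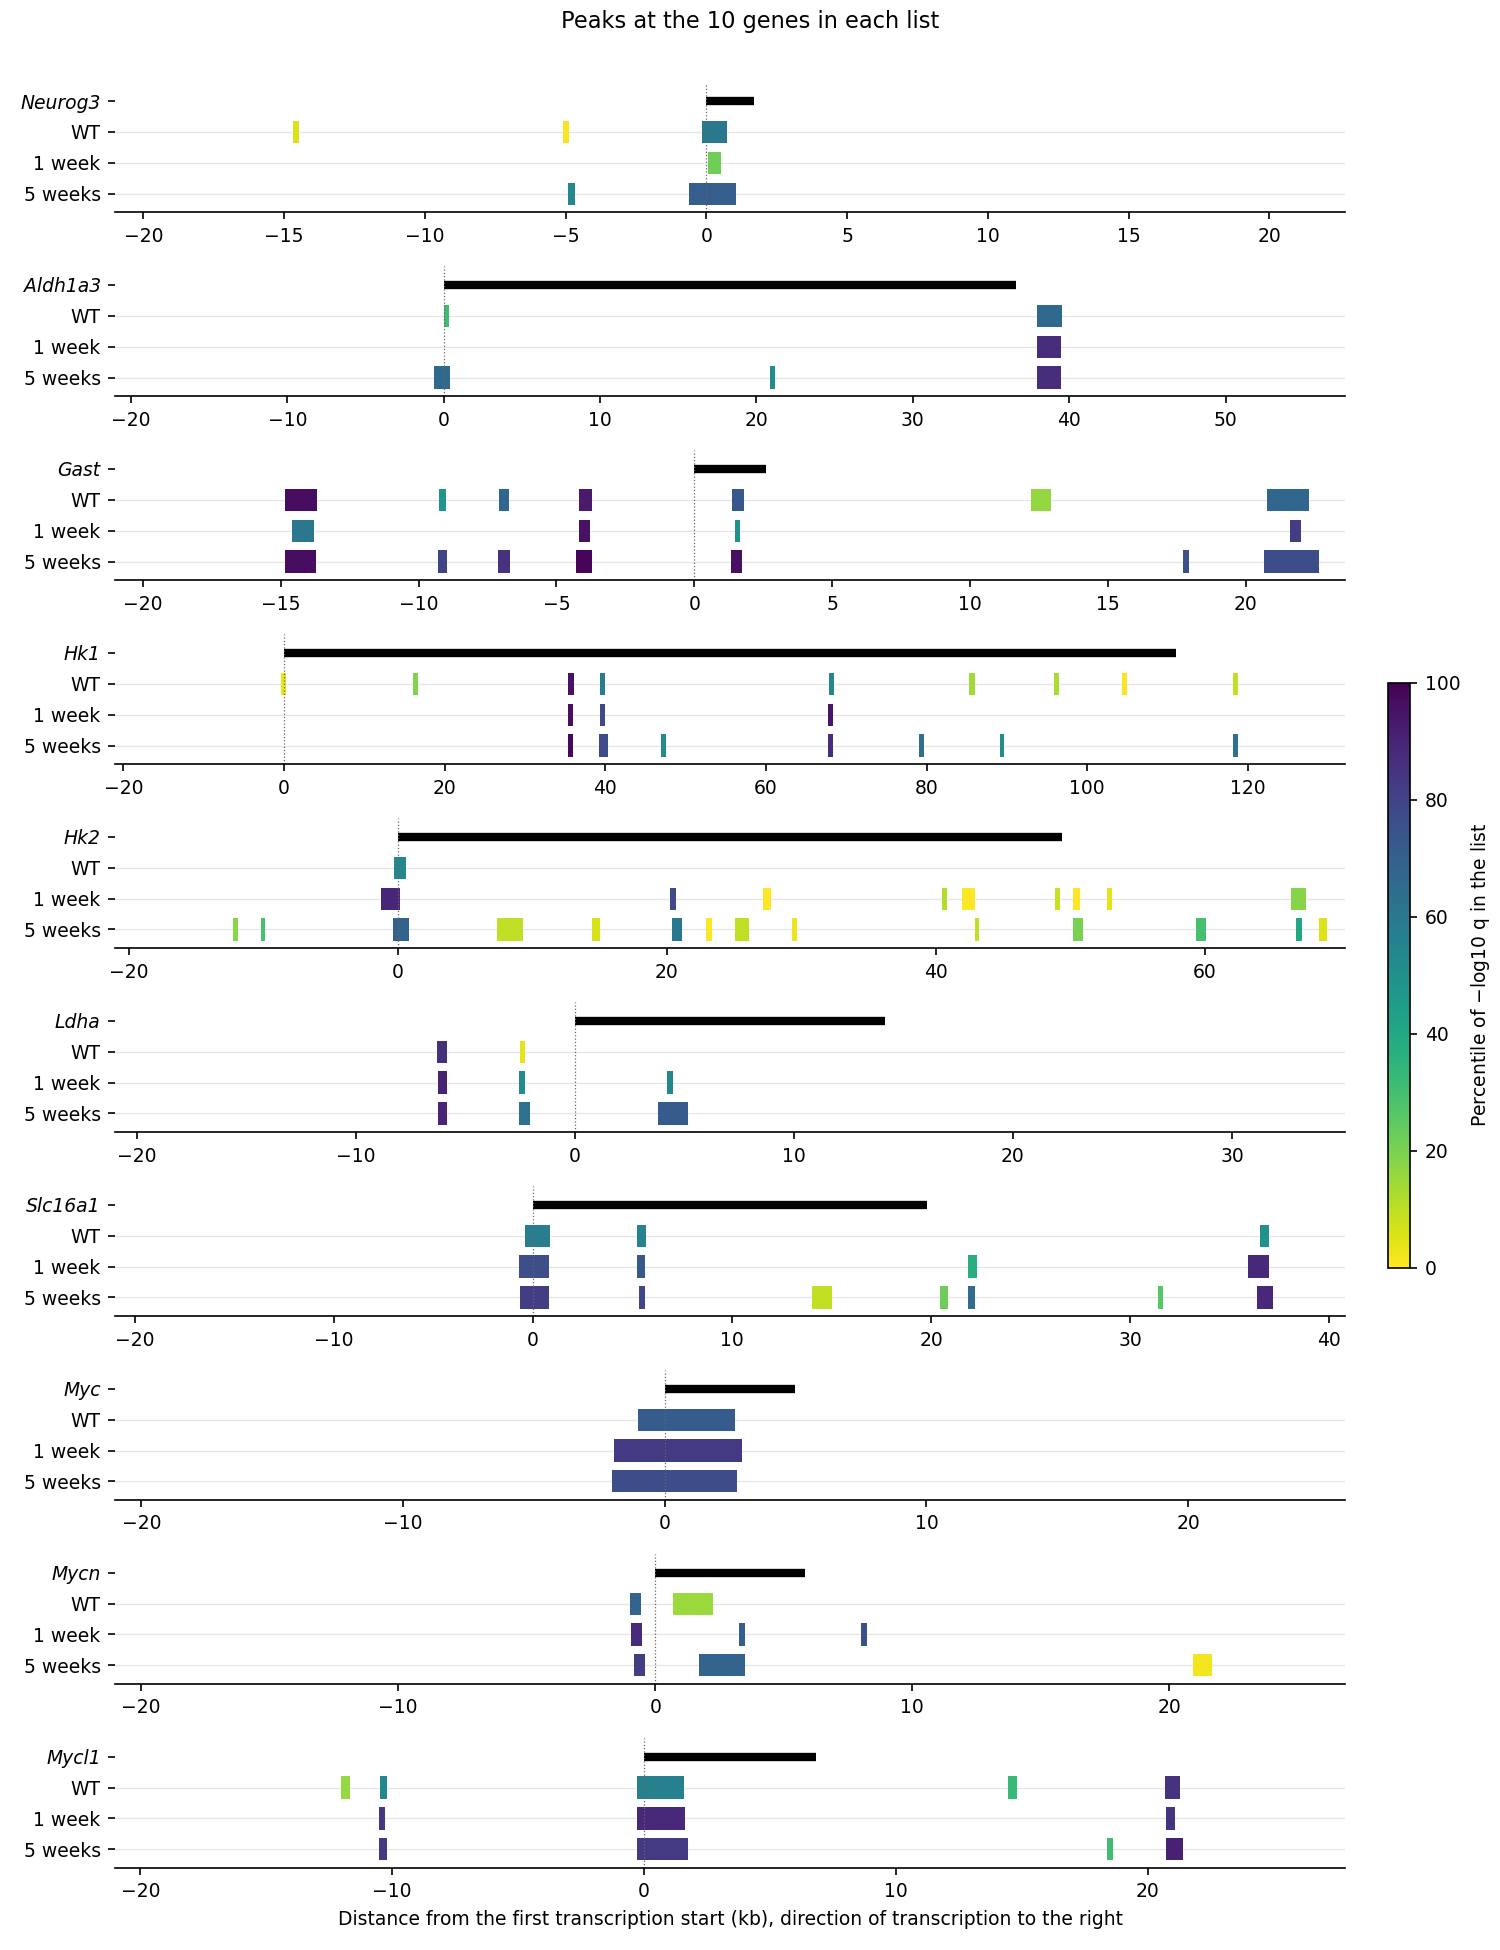
Peaks of the 3 lists at each gene (black bar: gene body), drawn by distance in kb from the first annotated start, with transcription to the right and the colour giving the percentile of -log10 q in the peak's own list. Gast and Hk1 hold dark peaks that recur in all lists, and Hk2 holds mostly pale peaks that are in the Taf4 KO lists and not in WT.

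The progenitor factor Neurog3 (ENSMUSG00000044312) occupies positions 61595838 to 61597511 on the plus strand of chromosome 10 (mm9) and lies inside the longer gene 2010107G23Rik, so accessibility there cannot be given to 1 of them alone. In WT the promoter peak began 141 bp before the start and ended 712 bp past it, with a fold over local background of 3.37 and a confidence of 4.93, at the 60.0 percentile. The 1-week KO had a peak from 40 to 500 bp downstream, with a fold of 2.25 and a confidence of 1.51, at the 22.0 percentile. The 5-week KO peak began 618 bp upstream and was 1677 bp wide, with a fold of 2.65 and a confidence of 4.68, at the 70.7 percentile. The 1-week KO peak was thus the narrowest and weakest, at the 3.53 percentile of promoter peaks against 21.5 in WT and 19.8 in the 5-week KO, and it was not called when the lists were cut to equal length. A further weak WT peak 14.6 kb upstream was in no other list, and a site 4.9 kb upstream was at the 1.06 percentile in WT and the 54.2 percentile in the 5-week KO. The 1 Mb around Neurog3 had the highest GC content of the 10 genes, 48.0%.

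The 150 bases before the Neurog3 start are shown because the edges of the peak moved over them: they were inside the 5-week KO peak, in part inside the WT peak and outside the 1-week KO peak. The sequence is from NCBIM37 (the same build as mm9), chr10:61595688-61595837, plus strand.
Neurog3 promoter: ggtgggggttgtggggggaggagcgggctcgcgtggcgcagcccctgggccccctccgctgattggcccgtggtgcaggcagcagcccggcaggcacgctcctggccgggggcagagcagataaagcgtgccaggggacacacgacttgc
The 250 bases upstream of the start held 18 CpG, against a median of 9 over all genes, and no match to any of the motifs searched. These were the TATA box (TATAAA), the E-box of Myc (CACGTG), the E-box of Neurog3 and Neurod1 (CAGATG), a homeodomain motif (TAATTA), a Fox motif (TGTTTAC), the AP-1 motif (TGANTCA), the CTCF motif and the Rfx X-box, all on both strands. No matches overlapped in the sequences printed.

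Of 20 other genes of endocrine progenitors, 15 had a promoter peak in WT, 13 in the 1-week KO and 19 in the 5-week KO, against 59.0%, 55.9% and 65.6% of all genes. Of the 15, 2 had no call in the 1-week KO, against 14.5% of all genes called in WT, and of the other 5, 4 had one in the 5-week KO, against 18.9% of all uncalled genes. Gata4, an early pancreas and endoderm factor, had a confidence of 3.33 in WT and 5.14 in the 5-week KO and no call in the 1-week KO, which was the lowest list at Neurog3 too. Nkx2-2, a factor of progenitors and of mature beta cells, had a call in the 5-week KO alone, with a confidence of 5.12. Sox9, a factor of duct-like progenitors that is also counted among the duct markers, had 2.15 in WT, no call in the 1-week KO and 2.84 in the 5-week KO. Pdx1 and Nkx6-1, called in every list, are also counted among the beta cell markers, so the list is not one of progenitors alone.

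Aldh1a3 (ENSMUSG00000015134) is a minus strand gene of chromosome 7, positions 73535778 to 73572403. In WT a promoter peak of 309 bp lay just inside the gene, with a fold of 2.83 and a confidence of 2.34, at the 30.6 percentile. The 1-week KO list held no promoter peak. In the 5-week KO the peak was 1026 bp wide and reached 609 bp upstream of the start, with a fold of 2.56 and a confidence of 3.81, at the 66.1 percentile. The 5-week KO peak was therefore wider and ranked higher in its list than the WT peak, while its pileup, in multiples of the lowest background of the list, was 2.92 against 3.90 in WT. Over all genes with a promoter peak the median of this pileup was 10.6 in WT, 4.29 in the 1-week KO and 5.32 in the 5-week KO. The wider promoter window gave no call in the 1-week KO either, and the WT call was lost at a confidence of 3 or more. A peak in an intron of the gene, 21.0 kb downstream, was called in the 5-week KO alone, at the 51.3 percentile. The remaining peak of the locus belonged to the promoter of the neighbouring gene Lrrk1 and was present in all lists, at the 66.2, 86.9 and 87.0 percentiles.

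The 150 bases upstream of the Aldh1a3 start, chr7:73572404-73572553 on the minus strand of NCBIM37, are shown because they were covered by the 5-week KO peak and by no peak of the other lists.
Aldh1a3 promoter: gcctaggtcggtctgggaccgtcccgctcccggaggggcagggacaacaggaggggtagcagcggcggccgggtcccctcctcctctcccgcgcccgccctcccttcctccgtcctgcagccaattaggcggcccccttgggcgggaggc
The 250-base window held 22 CpG and no match to the motifs searched.

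Gast (ENSMUSG00000017165) is a compact gene on the plus strand of chromosome 11, from 100195721 to 100198310. No list held a peak in its promoter, also with a window widened to 2000 bp upstream and 500 bp downstream. Its surroundings were open all the same. A peak 4.0 kb upstream had a fold of 5.75 and a confidence of 17.3 in WT, 4.44 and 10.9 in the 1-week KO, and 5.51 and 30.9 in the 5-week KO. It stood at the 92.8, 95.5 and 99.2 percentiles and was among the strongest sites of the 10 loci in each list. A peak 1.6 kb downstream, in an intron of Gast, had a confidence of 7.56, 2.06 and 20.1, at the 72.8, 49.2 and 96.0 percentiles. Its pileup, in multiples of the lowest background of the list, was 6.42, 2.69 and 5.85. The 1-week KO was thus lowest on each of these measures, while WT was highest by pileup and the 5-week KO by confidence.

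Further upstream the sites were also lowest in the 1-week KO. Peaks 6.9 kb and 9.1 kb upstream were present in WT, at the 67.4 and 47.6 percentiles, and in the 5-week KO, at 85.9 and 80.0, and not in the 1-week KO. The promoter of Eif1, which encodes a translation initiation factor used by every cell, lies 14.3 kb upstream of Gast. It stood at the 96.7 percentile in WT and in the 5-week KO and at the 60.4 percentile in the 1-week KO. The 1 Mb around Gast held 64 peaks in WT, 20 in the 1-week KO and 75 in the 5-week KO, so the lower count in the 1-week KO was not confined to the Gast locus. The promoter of Hap1, on the other side, did not follow this order, at the 67.3, 82.1 and 76.7 percentiles.

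The 200 bases at the middle of the stretches common to all 3 lists are shown for these sites, with the promoter that had no peak. In the upstream site (chr11:100191654-100191853, plus strand, NCBIM37) capitals mark a match to the AP-1 motif TGANTCA and a match to the homeodomain motif TAATTA. In the intron site (chr11:100197194-100197393) they mark an Rfx X-box, a palindromic motif that was added to the search after this sequence had been seen. In the promoter (chr11:100195571-100195720) they mark the TATA box motif TATAAA on the reverse strand, 28 bases upstream of the start.
Gast upstream site: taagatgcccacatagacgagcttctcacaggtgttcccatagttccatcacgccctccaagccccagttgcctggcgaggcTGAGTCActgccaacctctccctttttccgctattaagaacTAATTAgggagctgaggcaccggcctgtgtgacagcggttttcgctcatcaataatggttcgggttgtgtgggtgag
Gast intron site: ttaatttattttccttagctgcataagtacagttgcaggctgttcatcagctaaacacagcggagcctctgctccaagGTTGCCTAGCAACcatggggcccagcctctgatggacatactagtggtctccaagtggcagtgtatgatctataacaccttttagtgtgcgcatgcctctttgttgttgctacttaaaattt
Gast promoter: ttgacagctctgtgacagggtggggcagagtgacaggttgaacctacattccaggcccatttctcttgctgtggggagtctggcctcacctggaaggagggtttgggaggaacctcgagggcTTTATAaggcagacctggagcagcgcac
A match is a description of letters, not of binding. Over 25636 regions outside promoters that all 3 lists shared, 200-base windows held TGANTCA in 9.46%, TAATTA in 7.06% and the Rfx X-box in 0.753%. TATAAA was found in the 250-base window of 12.3% of all promoters. The Gast window held 2 CpG, the fewest of the 10 genes.

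Hk1 (ENSMUSG00000037012), the low-Km hexokinase of brain and red cells, is a minus strand gene of 111054 bp on chromosome 10 (61731603 to 61842656) and has 11 annotated starts. The first start had a peak in WT alone, with a confidence of 1.36, at the 3.01 percentile. The promoter peak that all lists shared lay at an inner start and was centred 39.8 kb downstream of the first, at the 58.4 percentile in WT, 78.4 in the 1-week KO and 77.4 in the 5-week KO, with widths of 647, 293 and 1117 bp. In WT and in the 1-week KO the midpoint of this shared peak also lay inside the gene 2210417K05Rik. Accessibility there cannot be given to Hk1 alone. The Hk1 start with a peak in all libraries was therefore the inner one.

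The strongest sites of the Hk1 locus lay in its introns. The peak 35.7 kb downstream of the first start, in a stretch that also belongs to 2210417K05Rik, had a confidence of 20.4 in WT, 11.7 in the 1-week KO and 23.7 in the 5-week KO, at the 95.5, 96.2 and 97.7 percentiles. The peak 68.1 kb downstream had 4.04, 9.81 and 11.1, at the 53.2, 94.4 and 87.0 percentiles, with folds of 3.57, 4.21 and 3.74. The pileup of the first site, in multiples of the lowest background of the list, was 16.0 in WT, 5.50 in the 1-week KO and 7.78 in the 5-week KO. That of the second was 4.33, 5.03 and 4.48, so its higher percentiles in the longer lists came with little difference in pileup. The locus held 9, 3 and 7 peaks, and 4 weak intron peaks of WT, at the 18.9 percentile or below, were in no other list.

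Both intron sites are shown as the 200 bases at the middle of their common stretch, on the minus strand of NCBIM37, at chr10:61806856-61807055 and chr10:61774472-61774671. Capitals in the second mark a match to CAGATG, the E-box bound by Neurog3 and Neurod1, on the reverse strand.
Hk1 intron site at 35.7 kb: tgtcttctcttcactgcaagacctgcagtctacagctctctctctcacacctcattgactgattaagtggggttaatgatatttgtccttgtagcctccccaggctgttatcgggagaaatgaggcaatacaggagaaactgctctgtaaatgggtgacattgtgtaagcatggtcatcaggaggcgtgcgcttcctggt
Hk1 intron site at 68.1 kb: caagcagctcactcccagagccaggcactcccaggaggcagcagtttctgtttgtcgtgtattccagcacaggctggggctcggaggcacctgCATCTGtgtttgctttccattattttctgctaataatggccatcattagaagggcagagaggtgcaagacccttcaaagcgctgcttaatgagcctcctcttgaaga
CAGATG was found in 23.1% of the shared regions outside promoters, so it is a frequent match. The first site held no match to the motifs searched.

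Hk2 (ENSMUSG00000000628), the low-Km hexokinase of muscle, fat and many tumours, is a minus strand gene of chromosome 6 (82675019 to 82724448) and showed the widest gap in peak number between the lists. Its promoter peak had a fold of 3.46 and a confidence of 4.05 in WT, 3.02 and 6.76 in the 1-week KO, and 2.24 and 4.31 in the 5-week KO. It stood at the 53.2, 89.3 and 68.8 percentiles. Among promoter peaks alone it stood at 17.2, 58.0 and 18.2, so the 1-week KO peak was the highest and the 5-week KO peak was close to WT. The peak covered the start in every list. In the 1-week KO it reached from 1218 bp upstream to 155 bp downstream, in WT from 269 bp upstream to 625 bp downstream, and in the 5-week KO from 328 bp upstream to 808 bp downstream.

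WT had no other peak within the Hk2 locus, whereas the 1-week KO list had 8 more and the 5-week KO list 13 more. Most of them were low. Apart from a site in an intron 20.7 kb downstream, at the 77.6 percentile in the 1-week KO and 59.5 in the 5-week KO, none exceeded the 40.4 percentile. The median local background of the peaks in the locus was 1.60 times the lowest background of the list in the 1-week KO and 1.69 times in the 5-week KO, against 1.13 times for the single WT peak. Over all peaks of the lists this ratio was 1.25 in WT, 1.06 in the 1-week KO and 1.06 in the 5-week KO.

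Hk2 was not alone in this. The stretch from 81300001 to 82900000 on chromosome 6, whose bounds were set after its values had been seen, held 27 peaks in WT, 182 in the 1-week KO and 206 in the 5-week KO, with a median local background of 1.13, 1.38 and 1.25 and a GC content of 43.2%. The next 700 kb, from 82900001 to 83600000, held 43, 34 and 53 peaks, with a median local background of 1.66, 1.06 and 1.11 and a GC content of 47.7%. The additional peaks at Hk2 were thus part of a broad stretch with more peaks in both Taf4 KO lists, and the part of this stretch in the counts at Hk2 was not tested.

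**Figure D3:**
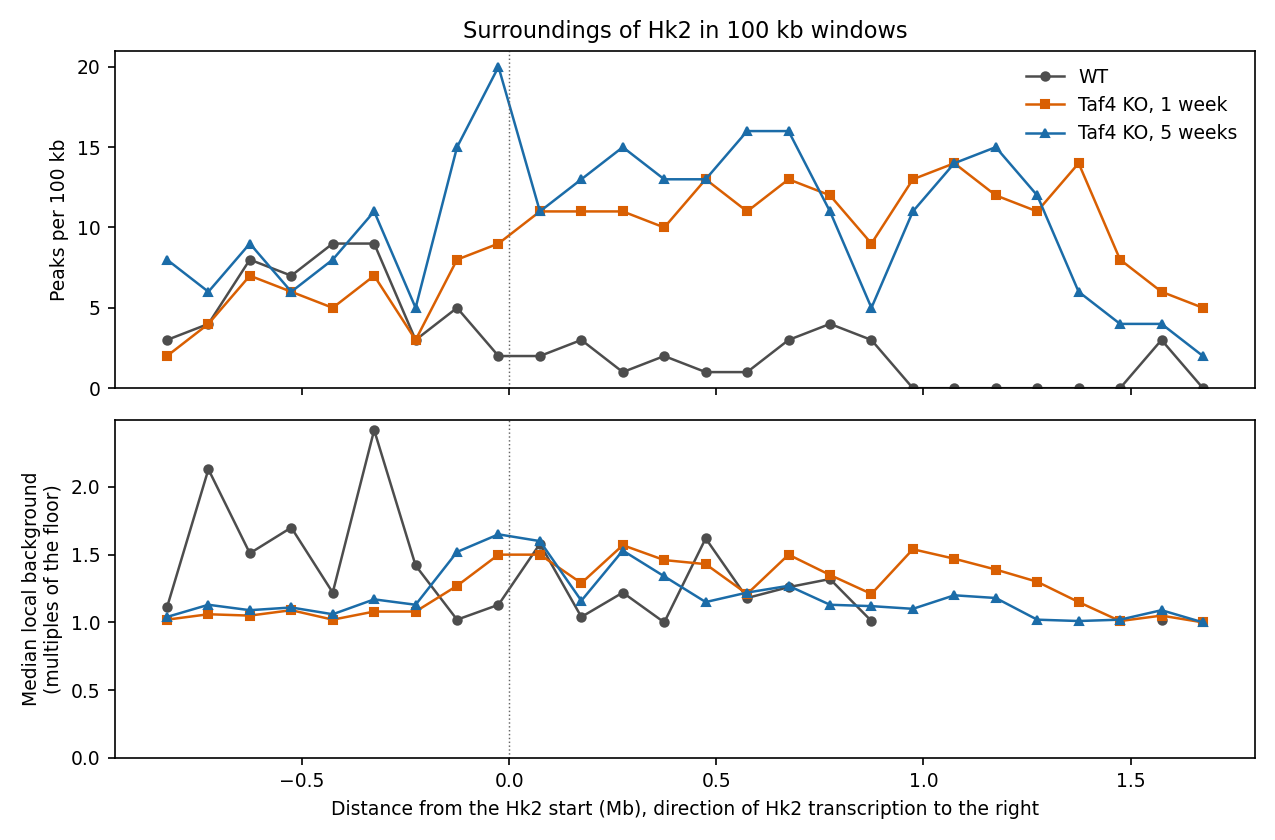
Peaks per 100 kb (upper axis) and their median local background in multiples of the lowest background of the list (lower axis) by distance in Mb from the Hk2 start, with Hk2 transcription to the right. Windows without a peak have no background point. On the upper axis both Taf4 KO lines stay above the WT line for more than 1 Mb to the right of the start, while on the lower axis the WT line is the highest in most windows to the left and no line is highest throughout to the right.

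The 150 bases upstream of the Hk2 start, chr6:82724449-82724598 on the minus strand of NCBIM37, are shown since all 3 promoter peaks covered them.
Hk2 promoter: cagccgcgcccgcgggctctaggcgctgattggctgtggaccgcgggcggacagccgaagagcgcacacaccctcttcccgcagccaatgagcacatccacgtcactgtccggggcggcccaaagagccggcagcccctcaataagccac
The 250-base window held 25 CpG and no match to the motifs searched.

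Ldha (ENSMUSG00000063229), the lactate dehydrogenase subunit that turns pyruvate into lactate, lies on the plus strand of chromosome 7 from 54096845 to 54110997, with 5 annotated starts. WT had no promoter peak. In the 1-week KO a peak of 282 bp, 4.4 kb downstream of the first start at an inner one, had a fold of 2.50 and a confidence of 2.20, at the 54.2 percentile. In the 5-week KO the peak at the same start was 1372 bp wide, with a fold of 2.63 and a confidence of 4.83, at the 71.3 percentile. Ldha was the single gene of the 10 that lacked a promoter peak in WT and had one in both Taf4 KO lists. The 1-week KO call was lost at a confidence of 3 or more, in lists cut to equal length and in lists scaled to the WT background, while the 5-week KO call was lost only at a confidence of 5 or more.

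Upstream of Ldha both sites were in all lists. A peak 6.1 kb upstream had a fold of 5.23, 3.67 and 4.01 and stood at the 86.1, 90.4 and 89.7 percentiles. A peak 2.3 kb upstream was at the 3.70 percentile in WT, 52.3 in the 1-week KO and 63.0 in the 5-week KO, with folds of 2.44, 2.46 and 2.43. Its higher rank in the deeper lists therefore came with nearly the same fold.

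The 250 bases upstream of the inner Ldha start (chr7:54100959-54101208, plus strand, NCBIM37) are shown because the 5-week KO peak covered all of them and the 1-week KO peak a part, together with the middle of the site 6.1 kb upstream (chr7:54090696-54090895). Capitals mark CACGTG, the E-box that Myc and Max bind, which was found 180 and 83 bases upstream of the start.
Ldha promoter: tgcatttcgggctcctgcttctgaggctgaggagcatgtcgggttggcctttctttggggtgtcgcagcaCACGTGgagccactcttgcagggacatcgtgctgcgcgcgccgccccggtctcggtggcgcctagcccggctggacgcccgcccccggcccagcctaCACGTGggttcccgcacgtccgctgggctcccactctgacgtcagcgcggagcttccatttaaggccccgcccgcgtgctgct
Ldha upstream site: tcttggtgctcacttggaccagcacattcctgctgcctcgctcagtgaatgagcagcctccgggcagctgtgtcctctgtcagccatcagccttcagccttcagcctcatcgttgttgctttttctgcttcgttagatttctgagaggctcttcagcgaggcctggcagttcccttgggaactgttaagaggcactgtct
CACGTG was found in the 250-base window of 6.53% of all promoters and in 2 of these 10, Ldha and Slc16a1. The upstream site held no match to the motifs searched.

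Slc16a1 (ENSMUSG00000032902) encodes the monocarboxylate transporter MCT1, which carries lactate and pyruvate across the plasma membrane and lies on the plus strand of chromosome 3 from 104442591 to 104462385. Its promoter peak had a fold of 3.57 and a confidence of 4.66 in WT, 2.84 and 3.57 in the 1-week KO, and 3.08 and 8.57 in the 5-week KO. It stood at the 58.1, 76.4 and 82.4 percentiles, and at 20.2, 28.5 and 35.8 among promoter peaks, so it ranked higher in each later list. Its pileup, in multiples of the lowest background of the list, was 5.05, 3.32 and 4.66, highest in WT. Its width was 1267, 1492 and 1495 bp. The peak began 418, 712 and 677 bp upstream of the start and ended 848, 779 and 817 bp downstream, so both Taf4 KO peaks reached further upstream. An intron site 5.4 kb downstream stood at the 56.1, 72.5 and 78.6 percentiles, and a site 36.5 kb downstream at 49.9, 88.6 and 88.5. The locus held 3, 4 and 7 peaks, and 3 of the peaks in the 5-week KO were in no other list and at the 26.5 percentile or below.

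The 250 bases upstream of the Slc16a1 start (chr3:104442341-104442590, plus strand, NCBIM37) are shown for comparison with Ldha, since both hold CACGTG, in capitals, here 204 bases upstream of the start.
Slc16a1 promoter: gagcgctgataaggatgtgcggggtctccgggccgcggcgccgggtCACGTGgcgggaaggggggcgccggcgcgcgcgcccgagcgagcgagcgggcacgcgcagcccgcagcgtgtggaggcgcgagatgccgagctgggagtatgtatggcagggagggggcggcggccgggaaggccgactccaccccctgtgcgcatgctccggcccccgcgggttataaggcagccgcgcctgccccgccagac
With 37 CpG this window was the richest of the 10 genes.

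Of 25 other genes kept low in beta cells, 16 had a promoter peak in WT, 18 in the 1-week KO and 21 in the 5-week KO, against 59.0%, 55.9% and 65.6% of all genes. Of the 9 without a call in WT, 4 had one in the 1-week KO and 5 in the 5-week KO, against 13.3% and 18.9% of all uncalled genes. Hk3, a further low-Km hexokinase, had none in WT, a confidence of 5.24 in the 1-week KO and 14.7 in the 5-week KO. Fcgrt, a receptor for immunoglobulin G, had a call in the 5-week KO alone, with a confidence of 10.4. Igfbp4, a binding protein of insulin-like growth factors, had 1.83 in WT, no call in the 1-week KO and 7.39 in the 5-week KO. Some of these genes are also used by endothelial, stromal and immune cells, whose marker counts are given above.

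Myc (ENSMUSG00000022346), on the plus strand of chromosome 15 from 61816946 to 61821929, had a single peak in each list, which covered its promoter and much of the gene. It was 3736 bp wide in WT, 4898 bp in the 1-week KO and 4781 bp in the 5-week KO. In every list it was among the widest peaks, at the 99.98 percentile of width or above. Its fold was 2.62, 2.50 and 2.41 and its confidence 7.17, 4.79 and 6.38. The local background was 5.10 times the lowest background in WT, 2.23 times in the 1-week KO and 2.24 times in the 5-week KO, and the pileup was 13.8, 5.80 and 5.54 times it. Myc thus kept a broad open domain in all libraries, and its pileup was highest in WT, as was the median over all promoters given above. Background and pileup are approximate here, since they were recovered from values averaged over the whole peak.

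Mycn (ENSMUSG00000037169), the family member of neural and progenitor tissue, is a minus strand gene of chromosome 12 (12942902 to 12948720). Its strongest promoter peak, 0.7 kb upstream of the first start, had a confidence of 6.41 in WT, 6.25 in the 1-week KO and 8.48 in the 5-week KO, at the 68.3, 88.0 and 82.2 percentiles. Its width was nearly the same in all lists, at 448, 443 and 430 bp. Its fold was 3.44, 3.20 and 2.87, and its pileup, in multiples of the lowest background of the list, 7.55, 4.73 and 5.24. Among promoter peaks it stood at the 28.6, 54.0 and 35.4 percentiles. Mycn kept this call under every alternative tried. A broader WT peak from 693 to 2244 bp downstream of the first start, at the 15.2 percentile, was overlapped by an intron peak of the 5-week KO, at the 68.3 percentile. The intron peak of the 1-week KO, at the 70.0 percentile, lay further downstream and did not overlap it.

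Mycl1 (ENSMUSG00000028654), the gene of L-Myc, lies on the plus strand of chromosome 4 from 122672895 to 122679728. Its promoter peak was 1869, 1888 and 2028 bp wide with nearly the same edges in all lists. Its fold was 2.93, 3.43 and 3.13, and it stood at the 56.7, 88.8 and 82.9 percentiles. Among promoter peaks it stood at 19.3, 56.4 and 36.9, highest in the 1-week KO. Its pileup, in multiples of the lowest background of the list, was 6.98, 4.43 and 4.66, highest in WT. A site 10.4 kb upstream stood at 54.2, 84.2 and 83.0. The promoter of Trit1, 21.1 kb downstream, gave 85.6, 84.6 and 91.0, and 2 weak WT peaks were in no other list.

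Sequence is shown for the 150 bases before the Myc start (chr15:61816796-61816945, plus strand), for the middle of the Mycn peak (chr12:12949311-12949510, minus strand) and for the middle of the Mycl1 upstream site (chr4:122662393-122662592, plus strand), all NCBIM37. Capitals in the Myc sequence mark TATAAA on the reverse strand, 35 bases upstream of the start, and the other sequences held no match to the motifs searched.
Myc promoter: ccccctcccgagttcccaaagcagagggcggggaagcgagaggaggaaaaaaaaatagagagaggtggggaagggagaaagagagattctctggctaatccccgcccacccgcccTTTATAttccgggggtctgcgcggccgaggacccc
Mycn promoter site: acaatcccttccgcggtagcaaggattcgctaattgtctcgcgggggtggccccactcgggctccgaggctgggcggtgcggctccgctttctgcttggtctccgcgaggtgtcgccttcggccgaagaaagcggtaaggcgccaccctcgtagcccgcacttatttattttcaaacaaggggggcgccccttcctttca
Mycl1 upstream site: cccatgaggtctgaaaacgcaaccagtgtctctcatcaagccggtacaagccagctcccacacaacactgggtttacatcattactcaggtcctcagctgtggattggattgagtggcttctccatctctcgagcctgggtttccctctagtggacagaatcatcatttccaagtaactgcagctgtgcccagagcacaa
The 250-base windows held further matches, to the Fox motif TGTTTAC 226 bases upstream of Myc, found in 2.71% of all promoters, and to the CTCF motif 171 bases upstream of Mycl1, found in 1.43%.

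A further list held 10 genes of the Max and Mlx network, among them Max, the partner of the Myc proteins. Of these, 10 had a promoter peak in WT, 7 in the 1-week KO and 10 in the 5-week KO, against 59.0%, 55.9% and 65.6% of all genes. Of all genes called in WT, 14.5% had no call in the 1-week KO, and with 10 genes the 3 of this list are a description only. The 3 without a call in the 1-week KO were Mxd3, Mga and Mlx. Mxd3 had a confidence of 15.5 in WT and 8.65 in the 5-week KO, Mga 8.59 and 10.3, and Mlx 4.56 and 8.23. The Myc genes themselves had a call in all 3 lists.

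**Figure D4:**
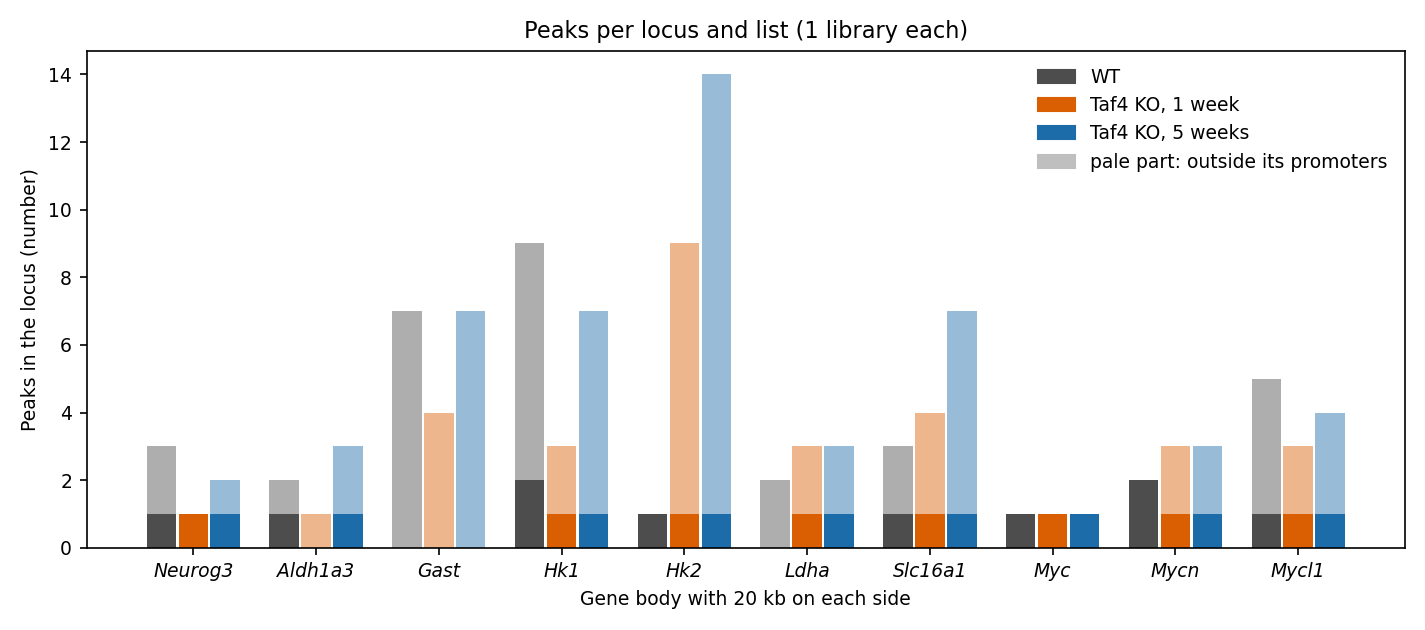
Number of peaks per locus (gene body with 20 kb on each side) in the WT, 1-week KO and 5-week KO lists, 1 library each, with the pale part of a bar giving peaks outside the gene's own promoters. Hk2 has 1, 9 and 14 peaks, Hk1 has 9, 3 and 7, and Myc has 1 in each list.

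Peaks were also counted in the wider surroundings of each gene. In the 1 Mb around the gene, the 1-week KO list held fewer peaks than WT at Neurog3 (0.589 of the WT number), Aldh1a3 (0.846), Gast (0.312) and Hk1 (0.673), and more at the other 6, from 1.11 at Myc to 2.21 at Hk2. The 4 genes with fewer were among the 5 whose own locus had fewer, and Mycl1 was the exception. Neurog3 and Hk1 are neighbours on chromosome 10, with first starts at 61595838 and 61842656. Their 1 Mb windows therefore overlap in large part, and their peak ratios and GC contents are not separate cases. The 5-week KO list held more peaks than WT around all 10, from 1.17 times at Gast to 3.18 times at Hk2. Over all genes the median of this ratio was 0.906 in the 1-week KO and 1.44 in the 5-week KO. The GC content of the 1 Mb was 45.6% at Aldh1a3 and 46.9% to 48.0% at Hk1, Gast and Neurog3, and 42.1% to 45.8% at the other 6. Over all genes called in WT, the share without a promoter peak in the 1-week KO was 2.84% in the lowest of 5 groups of GC content and 30.7% in the highest. The part of base composition in the values at the 10 genes was not tested.

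**Figure D5:**
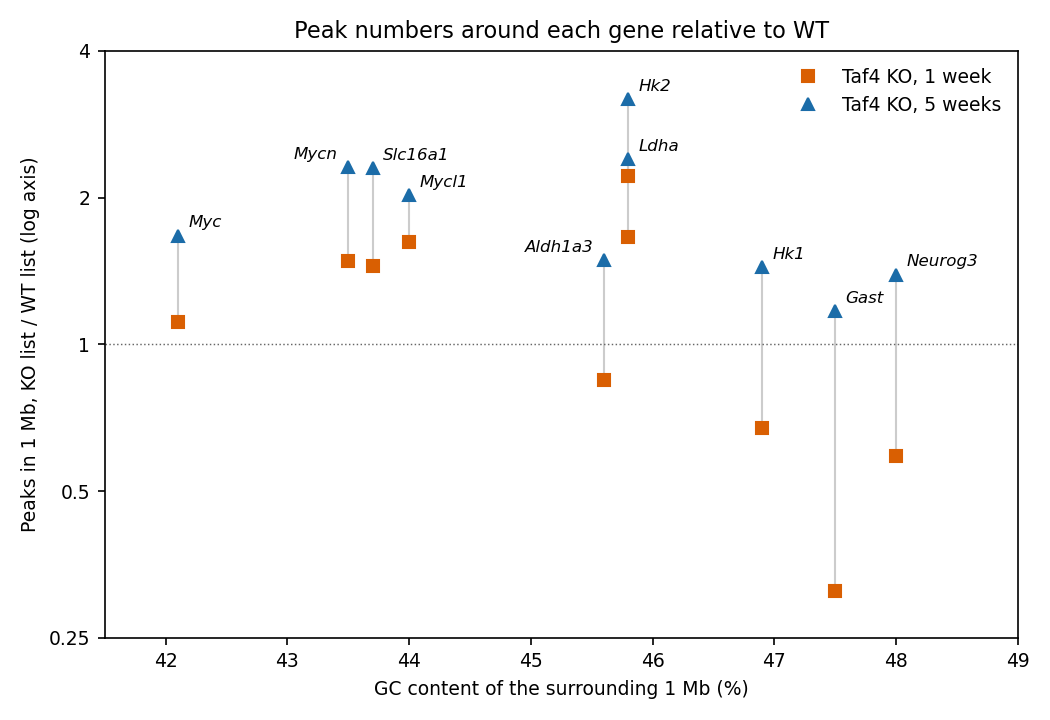
Number of peaks in the 1 Mb around each gene in the Taf4 KO lists divided by that in the WT list (log axis) against the GC content of the same 1 Mb in %. In the 1-week KO Gast lies lowest at 0.312 and Hk2 highest at 2.21, and in the 5-week KO all 10 genes lie above 1. The windows of Neurog3 and Hk1 overlap in large part.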

How the data were processed

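ATAC-seq was measured in 3 islet libraries, 1 per group, grouped by the genotype and time labels. The authors mapped reads to mm9 with Bowtie 1.0.0, keeping unique alignments, and called broad peaks per library with MACS2 2.1.1 (bcl2fastq 2.17.1.14), per the submitters' processing notes and the study's methods. A control library, duplicate removal and a shift to the insertion site were not given in the sources used here. The deposited lists hold per peak a fold over local background (ratio), a -log10 p and a -log10 q, averaged over the peak. The authors' score column was not used. The lowest -log10 q was 1.02, 1.01 and 1.01.

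Peaks on chromosomes 1 to 19, X and Y were kept, and 2 mitochondrial peaks per list left out. Genes, starts (46015) and sequence came from the GENCODE annotation of NCBIM37, which is mm9. Peaks were placed by their midpoint when outside promoters, and overlap meant at least 1 bp, checked against bedtools 2.31.1. At a single position, fold and p together fix the local background and pileup. Here both are averages over a peak, so the recovered background and pileup are approximate. The first percentile of the background was 3.65, 6.45 and 9.37 reads (WT, 1-week KO, 5-week KO), taken as the lowest background, and 5 peaks of the 5 week list gave no solution. It stands for depth, since read totals are unknown. Calls and recovery were tested on simulated data (Python 3.11.15, pandas 2.3.3, NumPy 2.4.6, SciPy 1.17.1).

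The genes and lists were chosen with earlier results of these data known. Named were all 10 genes and, per locus, promoter peaks and the distal peaks of highest rank, those in all lists and those in WT alone, and up to 3 genes of each list whose promoter call differed, by -log10 q. Adgre1 was not matched. No test was made. Alternatives were stricter -log10 q (3 or 5), lists of equal number, lists scaled to the WT background, a wider promoter, flanks of 10 or 50 kb and a reciprocal overlap of 50%. Leaving out Hk2 was added after seeing the data. 1 item is not reported here.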

Additional observations from a re-analysis of the deposited data

Results flagged for a closer look

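In 3 results the Taf4 KO lists lay on opposite sides of WT, and with 1 library per group none of these differences was tested. The Aldh1a3 locus held 1 peak fewer than WT in the 1-week KO and 1 more in the 5-week KO. Over all 10 loci the number of peaks differed from WT by -3 in the 1-week KO and by 16 in the 5-week KO. The Myc promoter peak ranked 9.07 percentile points higher among promoter peaks than in WT in the 1-week KO and differed by -5.58 in the 5-week KO.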

How the results depend on the processing

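Of 50 values recomputed under other settings, 19 were counted as moved and 31 were not. Those not counted as moved could still differ clearly. Without Hk2 the 5-week KO loci held 37 peaks instead of 51. With a reciprocal overlap of 50%, the share of WT peaks overlapped in the 1-week KO was 42.9% instead of 57.1%. With a confidence (-log10 q) of at least 5, 2 of the 10 genes had a promoter peak in WT, 3 in the 1-week KO and 5 in the 5-week KO. Of all 22359 protein-coding genes, 10877, 7490 and 12171 had one at this setting, in the same order. Peaks in the loci numbered 21, 18 and 30 (WT, 1-week KO, 5-week KO) with a confidence of at least 3, 11, 11 and 20 with at least 5, and 69, 62 and 113 with flanks of 50 kb. With lists cut to equal length there were 20 in the 1-week KO and 29 in the 5-week KO, and with lists scaled to the WT background 20 and 25. All were under the 35 of WT, so the excess in the 5-week KO turned into a deficit. The scaled 5-week KO list was also shorter as a whole than the WT list, with 51943 peaks against 60898, while that of the 1-week KO held 63023. No sums over all loci of the genome are set beside these. The share of WT peaks overlapped in the 1-week KO was 76.2% (16 of 21) with a confidence of at least 3 and 54.5% (6 of 11) with at least 5. In the 5-week KO it was 100% both with at least 3 (21 of 21) and with at least 5 (11 of 11). No shares over all WT peaks at these settings are set beside these. The cause of these shifts was not tested. Weak calls limit these results: in the 1-week KO the promoter peaks of Neurog3 and Ldha, and in WT that of Aldh1a3, were close to the threshold of the lists, and a site without a peak may be open below it.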
